A study of Homo sapiens with 6 samples.

Results

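Oxidative phosphorylation is carried out by 5 protein complexes of the inner mitochondrial membrane, and the genes described here encode their subunits from the nuclear genome. The members were chosen by gene symbol: NDUFA, NDUFB, NDUFC, NDUFS and NDUFV followed by a digit, the SDH, UQCR and ATP5 symbols, and COX4 to COX8. The platform annotation named 82 such genes, of 18244 genes with a probe set of their own in the data. Complex I had 35 members, complex II had 3, complex III had 8, complex IV had 17 and complex V had 19. Where several probe sets named a gene, the one of highest average signal over the 6 arrays stood for it. Values are log2 signals, so that a difference of 1 is a doubling, and signals of different genes come from different probes and do not rank transcript amounts between genes. A gene was tested where that average reached log2 5.69, the 40th percentile of all probe sets. That left 12637 genes, among them 78 members.

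Complexes I and II pass electrons from NADH and succinate to ubiquinone, complex III passes them on to cytochrome c, and complex IV reduces oxygen. Complexes I, III and IV pump protons, and complex V, the ATP synthase, lets the protons back and makes ATP. All except complex II also hold subunits encoded by mitochondrial DNA, so nuclear and mitochondrial transcripts have to be matched. Neurons rely heavily on this pathway, and many of its nuclear genes share promoter elements for the factors NRF1, GABP (an ETS factor) and YY1.

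The arrays measured total RNA of SH-SY5Y, a human neuroblastoma cell line of sympathetic origin that is used as a model of immature neurons. The series addresses what miR-137, a microRNA linked to psychiatric disorders, does in such cells. Cells received 15 pM of an anti-miR, a modified oligonucleotide that blocks a microRNA, 24 h after seeding, and RNA was collected 72 h after transfection. The anti-miR was directed against miR-137 in 3 samples and was negative control #1 in the other 3. Both groups carry the numbers 1 to 3, and the labels say neither what a number marks nor whether the samples came from separate cultures. The p-values therefore measure the spread between these samples, which may be technical. RNA integrity numbers lay between 9.5 and 9.8, array medians between 6.39 and 6.43, and precision is limited by the small number of arrays. Of 10 sympathetic neuroblastoma markers 9 were measured, at mean log2 signals from 8.28 to 14.5, and of 10 mesenchymal markers 7 were above the signal minimum, VIM, TWIST1 and COL3A1 among them, while PRRX1, COL1A2 and CD44 were below it. The block of miR-137 itself was not checked, since the microRNA was not measured here.

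Printed first is the microRNA that the treatment blocks, because pairing of its seed (bases 2 to 8, in capitals) to messenger RNAs is how it recognises them. The sequence is that of RefSeq, encoded on the minus strand at chr1:98046091-98046113 of GRCh38.p14.
hsa-miR-137-3p: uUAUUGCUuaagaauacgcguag

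The promoters that follow belong to the COX6A and COX6B pairs of complex IV, in each of which the isoform of restricted expression varied more over the arrays than the ubiquitous one, and to SDHA, the complex II member with the widest range. Each is the window from 250 bases before to 50 bases after the first transcript start that RefSeq lists (GRCh38.p14), printed in the direction of transcription. Capitals mark matches, on either strand, to the NRF1 core GCGCANGCG, the ETS core CCGGAAG or the YY1 core AAGATGGCG. They are, in order, chr19:35648073-35648372 on the plus strand, chr19:55354670-55354969 on the minus strand, chr12:120437863-120438162 on the plus strand, chr16:31428311-31428610 on the minus strand and chr5:218070-218369 on the plus strand.
COX6B1: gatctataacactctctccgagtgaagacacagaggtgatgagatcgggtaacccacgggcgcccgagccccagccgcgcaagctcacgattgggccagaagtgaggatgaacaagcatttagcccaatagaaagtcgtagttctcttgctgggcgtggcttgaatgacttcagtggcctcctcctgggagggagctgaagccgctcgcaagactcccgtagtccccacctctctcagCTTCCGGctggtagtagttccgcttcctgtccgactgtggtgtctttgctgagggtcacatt
COX6B2: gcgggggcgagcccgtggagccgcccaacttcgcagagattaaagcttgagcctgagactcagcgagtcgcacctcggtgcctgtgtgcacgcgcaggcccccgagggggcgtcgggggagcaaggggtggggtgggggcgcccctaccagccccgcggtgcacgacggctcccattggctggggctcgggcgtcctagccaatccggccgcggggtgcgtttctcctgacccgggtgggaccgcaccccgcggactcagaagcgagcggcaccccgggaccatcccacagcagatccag
COX6A1: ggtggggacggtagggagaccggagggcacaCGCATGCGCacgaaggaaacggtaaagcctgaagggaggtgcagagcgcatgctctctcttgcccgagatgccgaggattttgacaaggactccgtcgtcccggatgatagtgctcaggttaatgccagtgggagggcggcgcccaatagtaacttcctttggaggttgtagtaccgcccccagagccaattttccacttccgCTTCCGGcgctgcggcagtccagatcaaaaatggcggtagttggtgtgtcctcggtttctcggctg
COX6A2: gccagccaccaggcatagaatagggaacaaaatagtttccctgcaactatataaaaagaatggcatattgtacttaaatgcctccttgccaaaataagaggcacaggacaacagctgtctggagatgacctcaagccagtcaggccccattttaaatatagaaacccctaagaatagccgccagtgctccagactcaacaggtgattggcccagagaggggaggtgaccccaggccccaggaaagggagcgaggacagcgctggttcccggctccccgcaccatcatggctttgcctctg
SDHA: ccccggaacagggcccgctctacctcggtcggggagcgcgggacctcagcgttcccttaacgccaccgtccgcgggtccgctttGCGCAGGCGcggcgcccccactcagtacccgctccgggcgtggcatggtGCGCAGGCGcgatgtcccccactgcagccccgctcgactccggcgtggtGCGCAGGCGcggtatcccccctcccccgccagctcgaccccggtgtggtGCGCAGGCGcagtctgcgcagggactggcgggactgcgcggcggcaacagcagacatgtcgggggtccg

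The SDHA window held 4 NRF1 cores, that of COX6A1 held 1 NRF1 and 1 ETS core, and that of COX6B1 held 1 ETS core. The COX6A2 and COX6B2 windows held none of these 3 motifs, and the shorter CCAAT box, which is not in capitals, was found in the windows of all 4 COX6 genes. Promoters were matched for 67 of the 82 members. The NRF1 core stood in 21 of the 67 (31.3%), against 8.05% of all 27305 promoters and 14.4% of those of genes tested. The ETS core stood in 19 (28.4%, against 10.7% and 18.3%) and the YY1 core in 7 (10.4%, against 1.85% and 3.82%). At least 1 of the 3 was found in 38 member promoters (56.7%), against 18.3% of all promoters and 31.9% of those of genes tested. CCAAT stood in 37.3% of member promoters and 35.7% of all promoters. By complex, at least 1 of the 3 motifs was present in 16 of 31 promoters of complex I, 2 of 2 of complex II, 5 of 6 of complex III, 6 of 14 of complex IV and 9 of 14 of complex V. Within complex IV, 1 of 4 matched isoforms of restricted expression (COX8C, by an NRF1 core) held at least 1 of the 3 motifs. Of the other complex IV members 5 of 10 did. The motifs are matches of letters, not measured binding sites.

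After blocking of miR-137, no subunit gene of any complex passed the test, and the differences were small. In limma's test of anti-miR-137 against control, 0 of the 78 members had an adjusted p under 0.05, as had 0 of 12637 genes (0%). The unadjusted p was under 0.05 for 1 member, COX6A2 (1.28%), which was higher, and for 335 genes (2.65%), of which 209 were higher (1.65%). The members' log2 differences ran from -0.14 for SDHC to 0.22 for COX6A2, with a median of 0.015 against 0.0033 over all genes. Members had a higher mean with anti-miR-137 in 52 of 78 cases (66.7%), against 52% of all genes tested and 46.6% of the brightest 20% of genes. Centring each array on its median changed that count to 38 of 78 (48.7%, against 42.7% of all genes), with a member median of -0.00094. Scaling by cyclic loess between arrays gave 56 of 78 (71.8%, against 53.9% of all genes), so the majority on the higher side depended on the scaling. The groups did not overlap for 4 members (5.13%), NDUFA11, NDUFB8, NDUFS3 and NDUFV2, against 7.36% of all genes.

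The 95% confidence intervals show how large a change the data leave room for. They come from the fit with group as the only term, which counts differences between replicate numbers as spread. Intervals with the number in the model are not given here. For 73 of 78 members (93.6%) the whole interval lay within 0.3 log2 units of 0, against 67.8% of all genes tested and 88.3% of the brightest 20%. The median half-width was 0.142 for members, 0.158 for the brightest 20% and 0.189 for all genes. The exceptions were ATP5MC2, COX4I2, COX6A2, COX6B2 and SDHC, and over all members the bounds ran from -0.50 to 0.48.

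**Figure D1:**
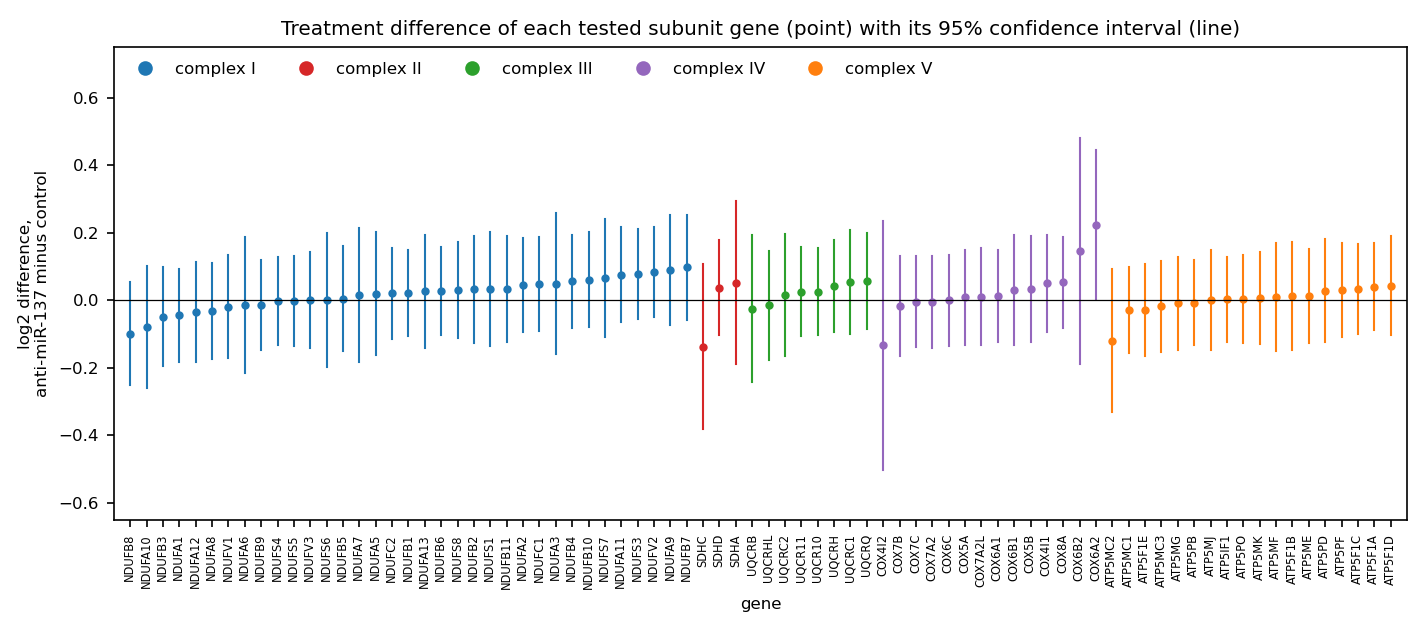
Log2 difference, anti-miR-137 minus control, of each of the 78 tested subunit genes (points, coloured by complex) with its 95% confidence interval (lines), 3 arrays per group. The points lie between -0.14 and 0.22, and the intervals are wide at the isoform genes COX4I2, COX6A2 and COX6B2.

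Complex I has a matrix arm with the core subunits that carry flavin and iron-sulphur clusters, and a membrane arm around which most accessory subunits sit. Of its 35 members, 24 had a higher and 11 a lower mean with anti-miR-137, with a median log2 difference of 0.022. NDUFV2, a core iron-sulphur subunit of the NADH-oxidising module, measured 11.87, 11.96 and 11.94 with anti-miR-137 and 11.86, 11.83 and 11.83 in controls. All 3 anti-miR-137 arrays lay above all 3 controls. The difference was 0.084 (SE 0.057, 95% interval -0.049 to 0.22, unadjusted p = 0.18, adjusted p = 1.00 by limma). NDUFS3, a core subunit of the arm that leads to ubiquinone, measured 11.71, 11.80 and 11.76 against 11.68, 11.65 and 11.70, again without overlap, and differed by 0.077 (SE 0.057, unadjusted p = 0.22). Of the other core subunits, NDUFS1, NDUFS7 and NDUFS8, all of which hold iron-sulphur clusters, differed by 0.032, 0.065 and 0.030. NDUFV1, which binds NADH and flavin, had the only negative value, -0.019. The median of the 6 core members was 0.049, and that of the 29 accessory members was 0.019.

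Among the accessory subunits of complex I the values lay on both sides of 0. NDUFB8, a membrane-arm subunit, measured 11.44, 11.41 and 11.44 with anti-miR-137 and 11.62, 11.44 and 11.53 in controls. It was the member with the smallest p on the lower side: all 3 anti-miR-137 arrays lay under all controls (the closest values are equal once rounded), and the difference was -0.099 (SE 0.065, unadjusted p = 0.17, adjusted p = 1.00 by limma). NDUFA11, another membrane-arm subunit, measured 13.02, 13.01 and 13.11 against 12.93, 13.00 and 12.99, a difference of 0.076 (SE 0.060) without overlap. NDUFB7, on the intermembrane-space side, measured 11.44, 11.37 and 11.41 against 11.41, 11.28 and 11.25 and differed by 0.097 (SE 0.066), with overlap between the groups. NDUFA9, which sits near the ubiquinone site, differed by 0.088 (SE 0.070), NDUFA10 by -0.079 (SE 0.077) and NDUFB3 by -0.049 (SE 0.063), and each of these overlapped as well. NDUFA1, the complex I member with the highest signal, measured 13.36, 13.28 and 13.30 and 13.37, 13.30 and 13.40, a difference of -0.045. The remaining accessory members lay between -0.035 (NDUFA12) and 0.061 (NDUFB10).

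Complex II, which is also the succinate dehydrogenase of the citric acid cycle, was represented by SDHA, the flavoprotein, and by the membrane anchors SDHC and SDHD. The iron-sulphur subunit gene SDHB was not analysed here. SDHC measured 10.71, 10.56 and 10.79 with anti-miR-137 and 10.62, 10.94 and 10.92 in controls. The control arrays of numbers 2 and 3 were the highest of the 6, the control of number 1 was the second lowest, and the groups overlapped. The difference of -0.14 (SE 0.10, 95% interval -0.38 to 0.11, unadjusted p = 0.23) was the most negative of all members. All 5 probe sets of SDHC were lower with anti-miR-137, by values from -0.23 to -0.07. SDHA differed by 0.052 (SE 0.10) and SDHD, which measured 11.03, 11.05 and 11.05 against 11.08, 10.99 and 10.95, by 0.037 (SE 0.060).

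The complex III genes varied little with treatment: 6 of 8 were higher with anti-miR-137, with a median of 0.025 and a range from -0.025 (UQCRB) to 0.057 (UQCRQ). The core proteins UQCRC1 and UQCRC2, which frame the matrix side of the complex, differed by 0.054 and 0.015. UQCRH, the hinge protein next to cytochrome c1, measured 14.07, 13.99 and 14.00 with anti-miR-137 and 14.02, 13.97 and 13.94 in controls, a difference of 0.043. UQCRHL, a near-identical intronless copy of UQCRH, differed by -0.016, and probes may not tell the 2 genes apart. The small subunits UQCR10 and UQCR11 differed by 0.025 and 0.025. The Rieske iron-sulphur gene UQCRFS1 was not analysed here.

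Complex IV is the complex in which isoform genes of restricted tissue expression stand beside ubiquitous ones, and its widest values came from the restricted isoforms. Over the 14 tested members, 9 were higher and 5 lower with anti-miR-137, with a median of 0.010. COX6A2 encodes the heart and skeletal muscle isoform of subunit 6A, has also been described in parvalbumin interneurons, and has been reported there as a target of miR-137. It measured 6.84, 6.64 and 6.86 with anti-miR-137 and 6.72, 6.47 and 6.49 in controls. The lowest of the anti-miR-137 arrays (number 2) lay under the highest control (number 1), so the groups overlapped. The means were 6.78 ± 0.12 (SD, n = 3) and 6.56 ± 0.14 (SD, n = 3), and the difference was 0.22 (SE 0.094, 95% interval 0.0035 to 0.44), with an unadjusted p of 0.047 and an adjusted p of 1.00 by limma. The gene had 1 probe set, whose mean signal was 6.67, near the signal minimum of 5.69. As 1 of 78 members with an unadjusted p under 0.05 it was no more than the share seen over all genes, and it did not pass the test.

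The ubiquitous paralogue COX6A1 measured 14.51, 14.56 and 14.61 with anti-miR-137 and 14.54, 14.53 and 14.58 in controls, and differed by 0.011 (SE 0.058). COX4I2, the lung isoform of subunit 4 that is known as a hypoxia-responsive gene, measured 6.03, 6.65 and 6.54 with anti-miR-137 and 6.43, 6.61 and 6.59 in controls. The anti-miR-137 array of number 1 was the lowest by a wide margin, and the difference of -0.13 (SE 0.16, unadjusted p = 0.42) was 0.057 without it. COX4I1, the ubiquitous isoform, differed by 0.049 (SE 0.061). COX6B2, the testis isoform of subunit 6B, differed by 0.15 (SE 0.14), and COX6B1 by 0.031 (SE 0.070). The other 2 probe sets of COX6B2 were at -0.07 and, below the signal minimum, at -0.10. COX5A, COX5B, COX6C, COX7A2, COX7B, COX7C, COX8A and COX7A2L, which acts in supercomplex formation, lay between -0.016 (COX7B) and 0.052 (COX8A).

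Below the signal minimum on average, and so not tested, were the muscle isoform COX7A1 (4.48 to 5.21 over the arrays), the testis isoforms COX7B2 (3.19 to 3.50) and COX8C (5.41 to 5.89), and ATP5MGL, an intronless copy of a complex V gene (4.68 to 5.22). COX8C, with a mean of 5.64, lay just outside the minimum, and COX4I2, with 6.47, was the dimmest member inside it. Of 8 striated muscle markers 3 were measured above the minimum (ACTN2, TNNI1 and MB), while MYH2, MYH6, MYH7 and CKM were below it. None of the 3 passed the test of treatment, with differences from -0.05 to -0.01.

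In complex V the catalytic head turns the proton flow through the c ring into ATP. The ATP5F1 members ATP5F1A and ATP5F1B (alpha and beta), ATP5F1C (gamma), ATP5F1D (delta) and ATP5F1E (epsilon) differed by 0.040, 0.011, 0.034, 0.043 and -0.028. ATP5F1E, which had the highest signal in complex V, measured 13.75, 13.70 and 13.72 with anti-miR-137 and 13.75, 13.70 and 13.81 in controls. The 3 c ring genes ATP5MC1, ATP5MC2 and ATP5MC3, which encode the same mature protein behind different import signals, were all lower on average, by -0.029, -0.12 and -0.018, and none passed the test. For ATP5MC3 this held for the probe set of highest signal, while its next 2 probe sets were at 0.011 and 0.024. ATP5MC2 measured 12.16, 12.32 and 12.24 with anti-miR-137 and 12.34, 12.52 and 12.21 in controls. The control array of number 2 was the highest, the groups overlapped, and the SE was 0.091 (unadjusted p = 0.23). The 9 stalk and membrane members, such as ATP5PO, the stalk protein that holds the head, had a median of 0.006, and ATP5IF1, the natural inhibitor of the enzyme's reverse reaction, differed by 0.0030.

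Between replicate numbers 1 member passed the test, COX6B2, and most subunit genes stayed close to their means on every array. Each number joins 1 array of each treatment, and a model with group and number was fitted to all genes. The F test over the numbers called 320 genes (2.53%) and 0 of the 78 members. The unadjusted F p was under 0.05 for 6 members (7.69%), against 23.5% of all genes and 19.6% of the brightest 20%, in which 73 of the 78 members lie. Between numbers 3 and 1, 1040 genes (8.23%) were called, 555 of them higher (4.39%) and 485 lower (3.84%) in number 3. Of the members 0 were called higher and 1 (1.28%), COX6B2, lower. The unadjusted p was under 0.05 for 9 members (11.5%), against 28.4% of all genes. With a variance prior that follows the signal, the counts rose to 10 members and 2305 genes (18.2%) between numbers 3 and 1, and to 8 members and 1797 genes (14.2%) by F. Between numbers 2 and 1, limma called 0 members and 4 genes (0.0317%), 3 of them lower (0.0237%), with an unadjusted p under 0.05 for 3 members (3.85%) and 13.2% of genes. Between numbers 3 and 2 it called 0 members and 1 gene (0.00791%), with an unadjusted p under 0.05 for 1 member and 16% of genes.

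As many members were higher as were lower in number 3 than in number 1 (39 of 78, or 50%, higher, against 47% of all genes). The 2 arrays of one number lay apart from those of the other for 41 members (52.6%, against 60.8% of genes) between numbers 3 and 1, for 44 (56.4%, against 45%) between numbers 2 and 1, and for 32 (41%, against 45.6%) between numbers 3 and 2.

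The members' ranges over the arrays were narrower at the median than those of other genes, bright genes included. The median range of a member over the 6 arrays was 0.143, against 0.268 for all genes tested and 0.184 for the brightest 20%. The median of the mean signals was 12.4 for members, 11.2 for the brightest 20% and 8.57 for all genes, so these groups were not matched for signal. A range under 0.2 was found for 59 members (75.6%), against 30.4% of all genes. The steadiest was ATP5PB, the b subunit of the ATP synthase stalk, which measured 13.37, 13.37 and 13.41 with anti-miR-137 and 13.40, 13.38 and 13.39 in controls. ATP5IF1 and ATP5MC1 followed with ranges of 0.046 and 0.066. The median within-group SD was 0.051 for members, 0.070 for the brightest 20% and 0.101 for all genes. The median size of the difference between numbers 3 and 1 was 0.051, 0.092 and 0.116 in the same order. Mitochondrial ribosome genes, a list of similar kind, had a median range of 0.165 and a median SD of 0.062. These differences between members and other genes were described, not tested.

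**Figure D2:**
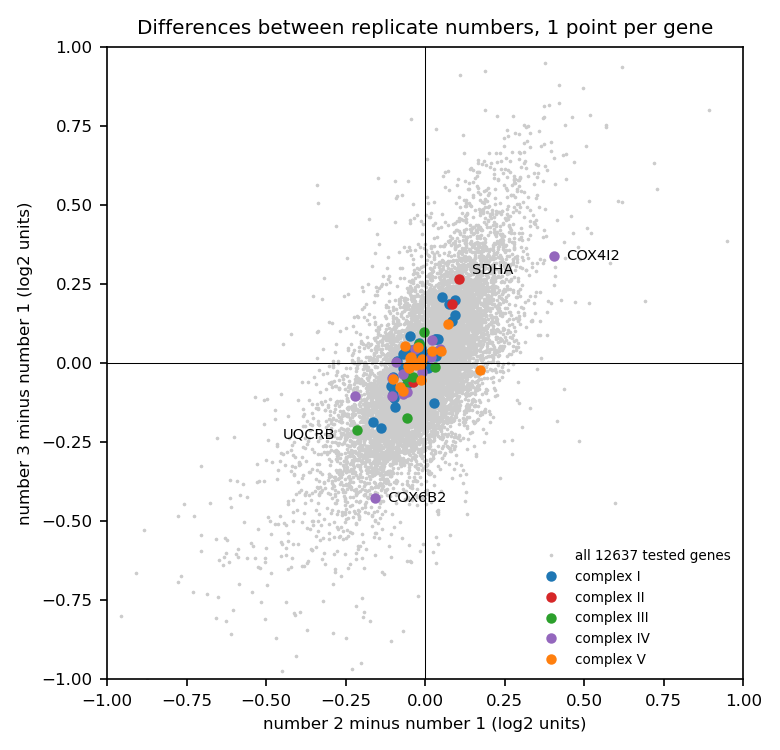
Log2 difference of number 3 minus number 1 against that of number 2 minus number 1, 1 point per gene, with the 78 subunit genes coloured over all genes tested in grey. 15 genes lie outside the axes of -1 to 1, and the subunit genes gather near the origin except COX6B2, COX4I2 and a few others.

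COX6B2 encodes a subunit found in testis, where it takes the place of COX6B1. It measured 7.17, 7.08 and 6.83 with anti-miR-137 and 7.13, 6.90 and 6.61 in controls, in the order of the numbers. In both groups the array of number 3 was the lowest, and both arrays of number 3 lay under all others. The difference of number 3 minus number 1 was -0.43 (SE 0.071, 95% interval -0.60 to -0.25, adjusted p = 0.028 by limma), and the F test gave an adjusted p of 0.066. The call was lost in fits without 1 array of number 1 or 3, which leave that number a lone array, as were almost all other calls. Over all left-out arrays the difference ran from -0.51 to -0.35. With no signal minimum the call was lost as well (adjusted p = 0.073 by limma), and 169 genes (0.926%) were called there. Its other probe sets had lower means in number 3 as well, with differences of -0.13 and -0.18. Their mean signals were 5.97 and 5.30, and the second lay below the signal minimum of 5.69. COX6B1 measured 13.64, 13.62 and 13.61 and 13.72, 13.53 and 13.53, with a difference of -0.11 between the same numbers.

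COX4I2 stood higher in numbers 2 and 3 than in number 1, by 0.40 and 0.34 (SE 0.11), and its adjusted p between numbers 3 and 1 was 0.12 by limma. Without the low anti-miR-137 array of number 1, the difference between numbers 3 and 1 was 0.14. COX6A2 was lowest in number 2 in the anti-miR-137 group and in numbers 2 and 3 among controls, with differences of -0.22 between numbers 2 and 1 and -0.11 between numbers 3 and 1. Over the 6 arrays COX4I2, COX6B2 and COX6A2 had ranges of 0.62, 0.56 and 0.39, and the widest among the other 75 members was 0.39. Their ubiquitous paralogues COX4I1, COX6B1 and COX6A1 had ranges of 0.14, 0.18 and 0.098. The 3 restricted isoforms also had the lowest signals among tested members, and the part of low signal in their ranges was not tested.

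**Figure D3:**
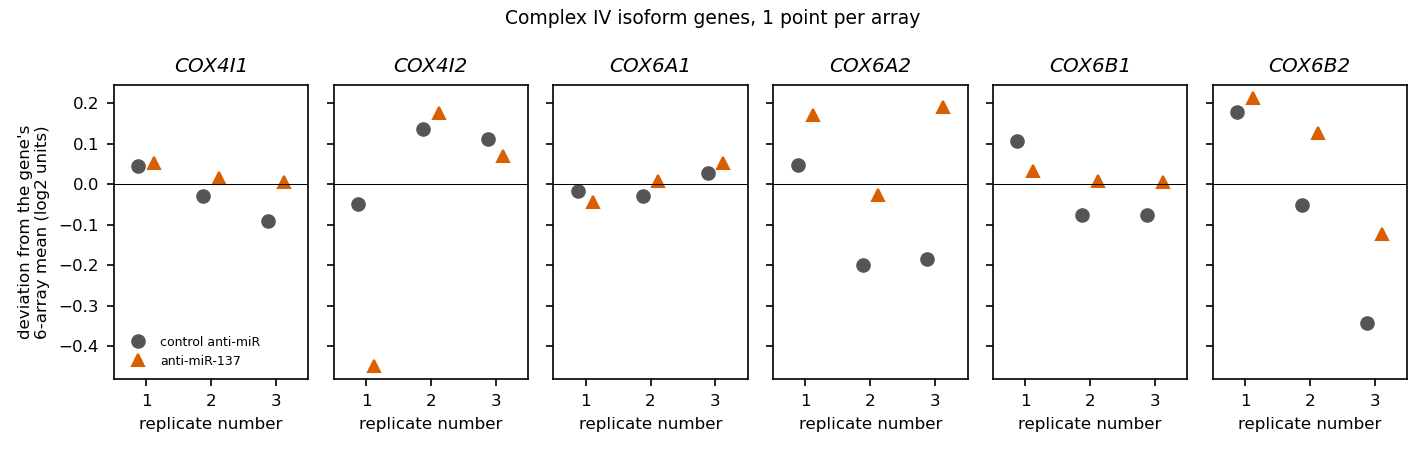
Deviation of each array from the gene's mean over 6 arrays (log2 units) for 3 pairs of complex IV isoform genes, by replicate number, with 1 point per array (triangles anti-miR-137, circles control). COX4I2, COX6A2 and COX6B2 spread over 0.39 to 0.62, and COX4I1, COX6A1 and COX6B1 over 0.098 to 0.18.

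SDHA, the catalytic flavoprotein of complex II, measured 10.37, 10.37 and 10.64 with anti-miR-137 and 10.25, 10.46 and 10.51 in controls. The array of number 3 was the highest of its group in both treatments. The difference of number 3 minus number 1 was 0.27 (SE 0.077, 95% interval 0.077 to 0.46), with an adjusted p of 0.093 by limma, so it did not pass the test. It passed with the signal minimum at the 60th percentile and with the prior that follows the signal. The other probe set of SDHA above the minimum differed by 0.29 in the same direction. SDHC differed by 0.19 (SE 0.11), with 4 of 5 probe sets positive, and SDHD by -0.059. The complex II median between numbers 3 and 1 was 0.19, and the others were 0.028 (complex I), -0.044 (III), -0.030 (IV) and -0.0022 (V), beside -0.012 over all genes.

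**Figure D4:**
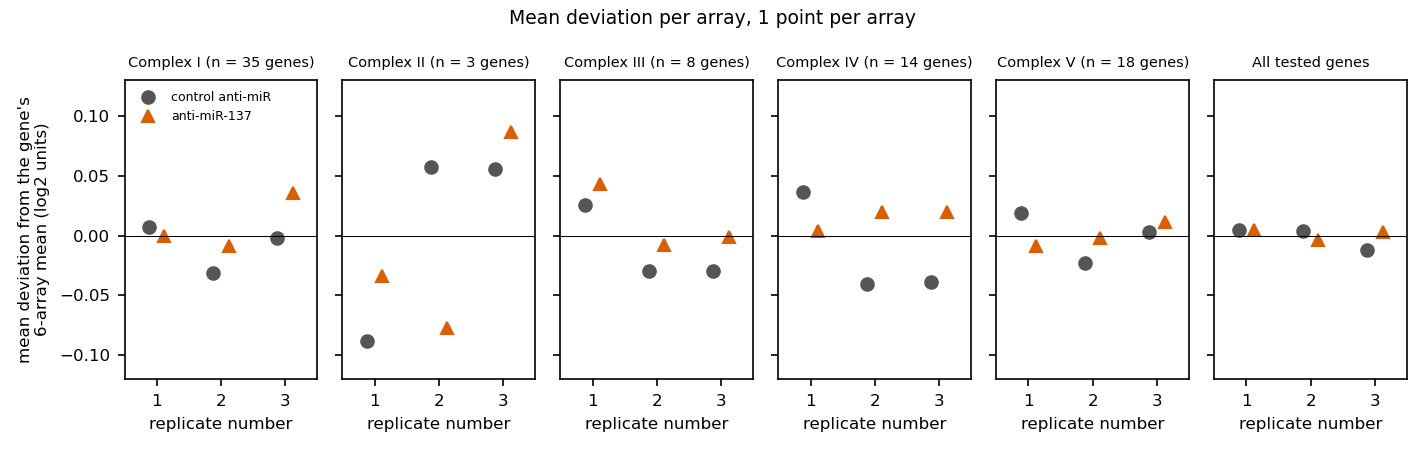
Mean deviation of the tested subunit genes of each complex from their 6-array means, for each array, by replicate number, 1 point per array. The 3 complex II genes lie at -0.033 and -0.088 in number 1 and at 0.087 and 0.055 in number 3 (anti-miR-137 first), and the means of the larger complexes stay within 0.05 of 0.

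UQCRB, a small complex III subunit near the ubiquinone site, measured 10.52, 10.32 and 10.26 with anti-miR-137 and 10.53, 10.30 and 10.36 in controls. Both arrays of number 1 lay above all others, and the differences of numbers 2 and 3 from number 1 were -0.21 and -0.21 (SE 0.064, adjusted p = 0.1 between numbers 3 and 1 by limma). Its 2 other probe sets above the minimum differed by 0.07 and -0.0019 between numbers 3 and 1, so the probe sets of this gene disagreed. Probe sets also disagreed in size for UQCRH, with -0.075 for its probe set of highest signal and -0.39 for the other. Of the 45 members with 2 or more probe sets above the minimum, all had 1 sign between numbers 3 and 1 in 32 and between treatments in 21.

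Of the complex I members, NDUFA6, NDUFS6 and NDUFA5 had higher and NDUFA7 lower means in number 3 than in number 1, and none passed the test. These 4, with NDUFA3 and NDUFA13, passed with the variance prior that follows the signal. NDUFA6, a member of the LYR family on the matrix arm, measured 10.97, 10.98 and 11.11 with anti-miR-137 and 10.91, 11.01 and 11.18 in controls, with a difference of 0.21 (SE 0.064, adjusted p = 0.11 by limma). NDUFA7, a matrix-arm subunit, measured 11.81, 11.74 and 11.64 and 11.86, 11.66 and 11.62, with a difference of -0.21 (SE 0.065, adjusted p = 0.11). For both genes the arrays of numbers 1 and 3 did not overlap. NDUFS6 differed by 0.20 (SE 0.072) and NDUFA5 by 0.19 (SE 0.060). NDUFA3, with the widest range in complex I (0.29), measured 12.21, 12.17 and 12.10 and 12.30, 12.01 and 12.03 and differed by -0.19, with all 4 of its probe sets negative. Between numbers 2 and 1, ATP5MC2 differed by 0.17 and NDUFS1 by 0.095, and between numbers 3 and 2, NDUFB2 differed by 0.13, ATP5MC2 by -0.19 and NDUFA10 by -0.15.

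Genes of the hypoxia and mesenchymal lists were called between numbers 3 and 1. The 9 tested sympathetic markers had a median of 0.017 between these numbers and the 3 tested striated muscle markers -0.055, with 0 called in both lists. The part of these lists in the members' values was not tested. The 7 tested hypoxia response genes had a median of -0.37 between numbers 3 and 1, and 3 of 7 were called lower in number 3 (VEGFA, ADM and NDRG1), against 3.84% of all genes. Their mean deviations per array were 0.22, -0.26 and -0.20 for anti-miR-137 numbers 1 to 3 and 0.27, -0.03 and -0.009 for controls, and all 7 had lower means with anti-miR-137 (median -0.17, 0 called). COXFA4L2 (formerly NDUFA4L2), a hypoxia-induced relative of a complex IV subunit that the symbol rule does not take in, differed by -0.32 between numbers 3 and 1 (adjusted p = 0.069 by limma), beside 0.34 for COX4I2, and by 0.22 between treatments. Of 7 tested mesenchymal markers 2 (VIM and YAP1) were called lower in number 3, with a list median of -0.22. In the same list 2 markers had higher means in number 3, by up to 0.38, and 0 were called higher.

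In the 5 lists of other pathway genes that follow, 0 genes were called for treatment and 0 by the F test over the numbers, which called 2.53% of all genes. Of the 4 subunits and relatives that the symbol rule does not match, COXFA4 (formerly NDUFA4), NDUFAB1 and CYC1 differed by 0.037, 0.040 and 0.020 between treatments, and COXFA4L2 by 0.22 (SE 0.12, unadjusted p = 0.11, adjusted p = 1.00 by limma). The lowest mean signal among these 4 was 5.83, near the signal minimum of 5.69, and the median of their mean signals was 12.3. Of 45 tested assembly factors, which help build the complexes, 23 were higher with anti-miR-137 (median 0.009, 21 after median centring). NUBPL, which delivers iron-sulphur clusters to complex I, differed by -0.17 (SE 0.057, unadjusted p = 0.02, adjusted p = 1.00 by limma), and UQCC1, a complex III factor, by 0.14 (SE 0.072). The factors with the smallest F p were NDUFAF1 and NDUFAF4, at 0.20 and 0.19 between numbers 3 and 1.

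Of 16 tested regulators of mitochondrial genes, 11 were higher with anti-miR-137 (7 after median centring, median 0.005 as deposited). The unadjusted F p was under 0.05 for 4 of them (25%, against 23.5% of all genes), and their median range was 0.205, against 0.268 for all genes. PPARGC1B, a coactivator of mitochondrial biogenesis, differed by 0.16 (SE 0.071) and POLRMT, the mitochondrial RNA polymerase, by 0.100 (SE 0.067). YY1 and GABPB1, which encode factors of the promoter motifs above, had the smallest F p of the list and differed by 0.29 and 0.24 between numbers 3 and 1, with adjusted p of 0.061 and 0.069 by limma. Among 15 genes of the citric acid cycle and pyruvate oxidation, 8 were higher with anti-miR-137 (median 0.001, 6 after median centring). OGDH, which encodes the E1 component of the oxoglutarate dehydrogenase complex, differed by 0.23 (SE 0.069, unadjusted p = 0.011, adjusted p = 1.00 by limma) and PDHA1 by 0.11. IDH3A and SUCLA2 had the smallest F p, at 0.23 and 0.19 between numbers 3 and 1.

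Of 8 tested carriers, 5 were higher with anti-miR-137 (median 0.013, 4 after median centring), with SLC25A5, an ADP/ATP carrier, at 0.082 and SLC25A3, the phosphate carrier, at 0.045. CYCS, cytochrome c itself, differed by 0.22 and VDAC3 by 0.10 between numbers 3 and 1. Of 76 mitochondrial ribosome genes, which serve translation of the mitochondrially encoded subunits, 58 were higher with anti-miR-137 (76.3%, against 52% of all genes), with a median of 0.022, and 0 passed the test. After centring each array on its median, 45 of 76 were higher (59.2%). MRPL4 differed by 0.13 and MRPL55 by 0.099. MRPS10 and MRPS31 differed by 0.28 and -0.16 between numbers 3 and 1.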

How the data were processed

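Total RNA of 6 SH-SY5Y samples, 100 ng each and labelled with biotin per the labels' protocols, was measured on 1-colour oligonucleotide arrays. The deposited values are log2 signals per probe set, made by the authors with RMA in R 3.0.1 per the submitters' processing notes. RMA makes the arrays' distributions alike, so only differences relative to the other genes can be measured. Scanner files were not used here. Of 49495 probe sets, 102 were controls, 45278 had 1 gene symbol in the platform annotation, 1333 had several and 2782 had none; 45208 gene identifiers were matched in RefSeq.

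Probe sets under the 40th percentile of mean signal (log2 5.69) were left out, and the probe set with the highest mean stood for its gene (12637 genes). Tests were made in limma 3.58.1 (R 4.3.3; lmFit, eBayes, two-sided, Benjamini-Hochberg over all genes, threshold 0.05), with group as the only term, or group and replicate number with an F test and pairwise contrasts. The fits were tested on simulated data. Figures were drawn with matplotlib 3.10.9.

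The members and lists were chosen with earlier results of these data known. Named were, for treatment, the 6 members with the smallest p in each direction, those with the smallest p between replicate numbers, the brightest and the most variable of each complex, and isoforms or near-identical copies, plus, from each list, the 2 genes with the smallest p in each comparison. Deviations of same-numbered arrays from their group means correlated at 0.55, 0.073 and 0.65 for numbers 1 to 3, so the numbers were not taken as pairs. Alternatives were the signal minimum, the choice of probe set, scaling, the variance prior, weights, covariates and leaving out each array.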

Additional observations from a re-analysis of the deposited data

How the results depend on the processing

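For treatment, 0 genes and 0 members were called under all 16 alternatives, with the replicate number as a block too (0 called), while the genes with an unadjusted p under 0.05 ran from 118 to 1089 (335 in the main fit, 815 with the replicate block). No paired reading of the numbers was used, because number 2 gave a correlation of 0.073. The genes called by the F test over the numbers (320) became 2 with no signal minimum and 1098 with the minimum at the 60th percentile. They became 98 without probe sets of the suffixes a, s and x, left out as those that may cross-hybridise (4055 genes, 17 members). They became 1797 with the trended variance prior, 637 with array weights, 526 without the group term and 0 to 539 with 1 array left out. The probe sets that stood for SDHA, UQCRB and COX6B2 carry the suffix x. Whether suffixed probe sets also read other genes was not tested. Members called by F were 8 with the trended prior and 1 with array weights, against 0. Members called between numbers 3 and 1, against 1, were 0 with no minimum, 2 with the mean of probe sets, 0 without the suffixed probe sets and 10 with the trended prior. With the minimum at the 60th percentile SDHA was called. COX6B2 was not tested at that minimum, which it lies under, nor without the suffixed probe sets, since all of its probe sets carry such a suffix. Complex medians without the suffixed probe sets rest on few genes, 17 members over all complexes, some of them by a dimmer probe set. NDUFS1, for one, stood there with a probe set of mean 6.48 in place of 10.5. For treatment these medians were 0.045 (complex I) and 0.035 (V). With all probe sets that of complex V ran from -0.019 to 0.016 with 1 array left out. Between numbers 3 and 1 the medians without the suffixed probe sets were 0.20 (I), -0.0049 (III) and 0.046 (V), with median centring 0.051 (I), -0.021 (III) and 0.021 (V), with cyclic loess 0.0061 (I) and -0.064 (III), and for complex II 0.12 with the mean of probe sets. With 1 array left out they ran from 0.0055 to 0.039 (I), 0.016 to 0.32 (II) and -0.017 to 0.024 (V). Complex II had no value without the suffixed probe sets, since all of its probe sets above the signal minimum carry such a suffix. The COX4I2 difference between treatments reversed to 0.12 when the RNA integrity number was added to the model and ran from -0.26 to 0.057 with 1 array left out. Fits without 1 array leave a number with a lone array, which is assumed to vary like the others. The cause of these changes was not tested. With 3 arrays a group and group as the only term, differences under about the median half-width of 0.142 were not resolved for most members. Members near the signal minimum, such as COX4I2, were measured with less precision.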
